A study of Rattus norvegicus with 28 samples.

Results

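Arrays with 2 channels compared the midbrain periaqueductal grey (PAG) with the rostral ventromedial medulla (RVM) of male rats whose hindpaw had been inflamed as newborns. Of the 28 arrays of the series, 10 belonged to this comparison by their titles, 5 for the PAG and 5 for the RVM after carrageenan. Pups had received 0.25% carrageenan, a seaweed polysaccharide that inflames tissue, in 0.9% saline at 1 µl per g of body weight into the sole of the left hindpaw on postnatal day 3. Weaning was on day 21, and the rats were grown to day 59. On every array RNA of a carrageenan-treated rat was set against RNA of the same region without an injection, with the same Alexa dye for the injected side throughout. The matching saline groups, 5 PAG arrays and 4 RVM arrays against the same kind of uninjected control, served as the background. The labels name no strain, give no number of animals behind an array and do not say whether the PAG and RVM came from the same rats. Nothing marks the arrays as separate animals, so each p-value reflects array-to-array spread alone, part of which may be technical.

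The PAG gathers forebrain and spinal input about pain and acts on the spinal cord mainly through the RVM. Neurons of the RVM, some of them serotonergic, project to the dorsal horn and can either dampen or facilitate pain signals. GABA holds the output neurons of both regions in check, and opioids acting in either region relieve pain. The array carried 228 features for 156 named genes, mostly receptors, transporters and precursors of these transmitters, together with neurotrophins and cytokines; 26 features were unnamed. Each value was a log2 ratio of carrageenan-treated over uninjected tissue, so a value above 0 was higher after carrageenan and a region difference is the PAG mean minus the RVM mean. Since both channels of an array came from the same region, the ratios held no expression level, and the identity of the regions could not be checked against marker genes. The array also had 0 features for the listed housekeeping genes and 0 for the listed astrocyte, microglia and oligodendrocyte markers.

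Many more features gave a ratio in the PAG than in the RVM. An exact 0 in the deposited table was taken as not measured, and 52.1% of the 2280 values of the 10 arrays were 0. The PAG arrays measured 181, 157, 151, 169 and 86 features, and the RVM arrays measured 108, 30, 110, 29 and 72. PAG arrays 1 to 4 lay above every RVM array, while PAG array 5 lay within the RVM range. The means were 148.8 ± 36.9 (SD, n = 5) and 69.8 ± 39.8 (SD, n = 5), a difference of 79 features (exact two-sided permutation p = 0.0238, 0.0476 adjusted over the 2 array measures; the smallest p possible was 0.00794). Without RVM arrays 2 and 4, which measured under 40 features each, the difference was 52.1 (exact permutation p = 0.107). After saline the order was the opposite, with 80.8 ± 26.8 features (SD, n = 5) in the PAG and 145.5 ± 38.9 (SD, n = 4) in the RVM. The region difference after carrageenan exceeded that after saline by 143.7 features (exact permutation of the injections within each region, p = 0.000945 over 31752 regroupings). That last test was added after the values were seen.

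**Figure D1:**
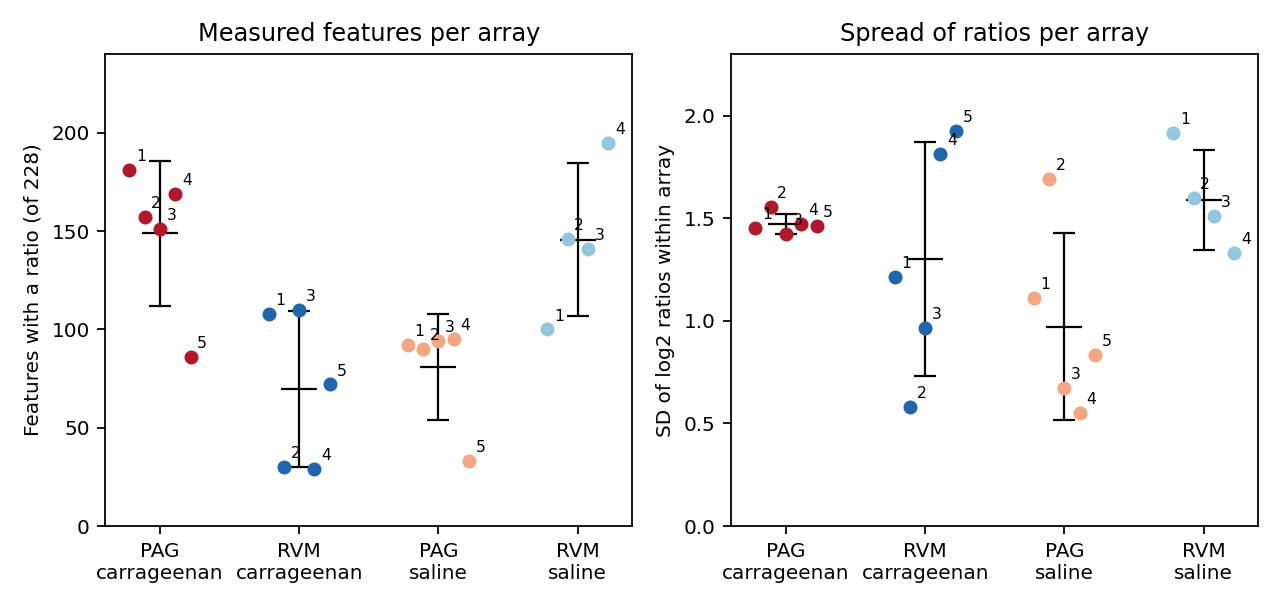
Number of the 228 features with a ratio on each array (left) and standard deviation of the log2 ratios within each array (right), for PAG and RVM after carrageenan and after saline. Points are arrays with their numbers, the long bar is the mean and the whiskers are the SD. PAG arrays measured 86 to 181 features after carrageenan and RVM arrays 29 to 110; the order of the 2 regions is the opposite after saline.

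The SD of the log2 ratios, taken per array, missed the threshold of that test. Within arrays, the SD of the log2 ratios was 1.45, 1.55, 1.42, 1.47 and 1.46 on the PAG arrays and 1.22, 0.58, 0.97, 1.81 and 1.93 on the RVM arrays. The PAG arrays were thus nearly alike, and the RVM arrays lay on both sides of them. The means of 1.47 ± 0.0492 (SD, n = 5) and 1.30 ± 0.569 (SD, n = 5) differed by 0.17 (exact two-sided permutation p = 0.54), and without RVM array 2 by -0.01. Measured by the median absolute deviation, which gives less weight to extreme ratios, the PAG arrays exceeded the RVM arrays by 0.48 (exact permutation p = 0.0159). Across the 10 arrays, 33.6% of the 744 measured PAG values and 20.1% of the 349 measured RVM values lay more than 1 log2 unit from 0. The saline arrays had the opposite order. Their within-array SD averaged 0.97 ± 0.45 (SD, n = 5) in the PAG and 1.59 ± 0.24 (SD, n = 4) in the RVM.

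Pairs of PAG arrays had the higher median correlation, which is described here without a test. Over the features a pair of arrays shared, Pearson's r lay between 0.32 and 0.66 with a median of 0.4 in the 10 pairs of PAG arrays, above 0 in all 10. It lay between -0.39 and 0.35 with a median of 0.09 in the 10 pairs of RVM arrays, above 0 in 6. The lowest of these came from RVM arrays 2 and 4, which shared 19 features. Between a PAG and an RVM array r was above 0 in all 25 pairs, from 0.01 to 0.53 with a median of 0.22. These correlations are across features of 1 array design with fixed dyes, and features are not independent replicates.

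Measured values were fewer in the RVM for every gene list on the array. Over all features 65.3% of the feature-by-array values were measured in the PAG and 30.6% in the RVM, or 42.4% on RVM arrays 1, 3 and 5 alone. The gap was 87.5% against 20% for the metabotropic glutamate receptors, which tune excitatory synapses through G proteins, and 96% against 20% for the 5 features of acetylcholine and purine receptors. It was 75% against 25% for the opioid peptides and receptors. Serotonin receptors and the serotonin transporter stood at 52.5% and 36.3%, and neurotrophic factors and their receptors at 88.6% and 57.1%. Of the 228 features, 172 were measured on more PAG than RVM arrays, 12 on more RVM than PAG arrays and 44 on as many of each. After saline the shares over all features were 35.4% in the PAG and 63.8% in the RVM. Fewer cells of a type, less RNA per cell and array processing cannot be told apart in such shares, and none was tested.

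**Figure D2:**
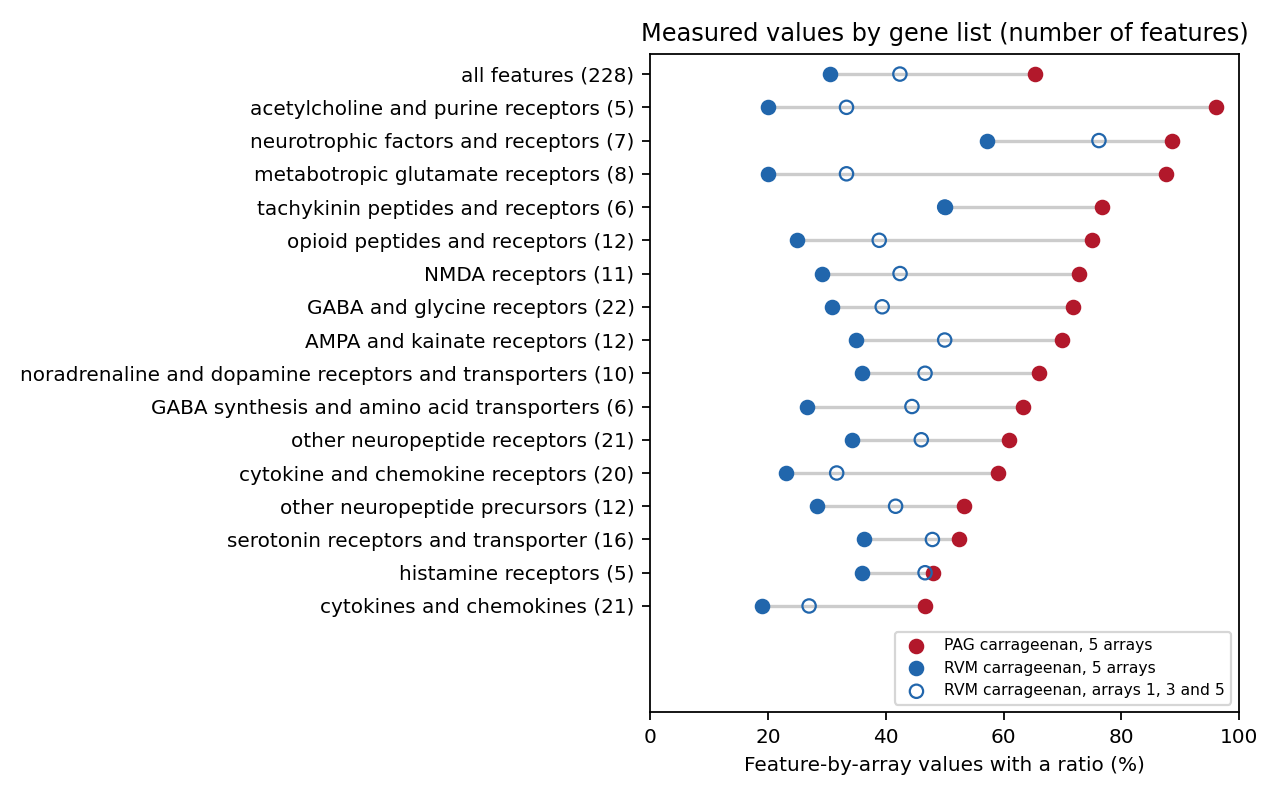
Share of feature-by-array values with a ratio, in percent, for each gene list (number of features in parentheses) after carrageenan in the PAG (red), in the RVM (blue, filled) and on RVM arrays 1, 3 and 5 alone (blue, open). Over all 228 features the shares were 65.3%, 30.6% and 42.4%, and the PAG point lies to the right in each list.

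A group of 25 features had a ratio on 4 or 5 PAG arrays and on no RVM array; 0 features showed the reverse pattern. Of these, 11 had a PAG mean above 0 and 14 below, and 15 had the same sign on every measured PAG array. No test between regions was possible for them, and the values below are descriptions of the PAG arrays. Those named next were chosen by the largest absolute mean over its SD, an order that favours the same sign on every array. On at least 1 RVM saline array 23 of the 25 were measured, so all but 2 gave a signal in that region after the other injection.

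Subunits of the NMDA receptor, the glutamate-gated calcium channel of synaptic plasticity, were among the features measured in the PAG alone. Grin2c, which encodes a modulatory subunit, had ratios of -2.52, -1.43, -0.59, -2.66 and -1.48 on PAG arrays 1 to 5 (mean -1.74 ± 0.86, SD, n = 5). Grin2d feature 167, for another modulatory subunit, had -0.89, -0.60, -0.56, -1.13 and -1.79 (mean -0.99 ± 0.50, SD, n = 5). Both were below 0 on all 5 arrays, and low ratios were also found after saline. Grin2c was below 0 on all 8 measured arrays of the 4 groups, with -1.29 ± 1.24 (SD, n = 2) in the saline PAG and -1.77 on the 1 saline RVM array. Grin2d feature 167 was below 0 on 12 of 13, with -0.44 ± 0.29 (SD, n = 5) in the saline PAG and -0.91 ± 0.79 (SD, n = 3) in the saline RVM. Because the dyes were never swapped, a dye effect of a probe and an effect of injection cannot be told apart in such values. The second Grin2d feature, 171, which was measured in both regions, did not share this: its PAG values were -0.03, 0.17, 0.11, -0.07 and 0.01.

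Cytokines, a GABA transporter and an adenosine receptor were among the other such features. Il13, an interleukin of type 2 immunity, had PAG ratios of 0.76, 2.37, 1.53, 0.83 and 1.08 (mean 1.31 ± 0.66, SD, n = 5). Il11, of the interleukin-6 family, had 1.28, 1.20, 0.48 and 2.69 on arrays 1 to 4 (mean 1.41 ± 0.93, SD, n = 4). Both stood above 0 on every measured PAG array after carrageenan. After saline, Il11 averaged 0.10 ± 0.15 in the PAG (SD, n = 2) and 2.84 ± 1.75 in the RVM (SD, n = 4), where all 4 values were above 0. Il13 averaged 1.40 ± 3.00 in the saline PAG (SD, n = 3) and 1.96 ± 2.68 in the saline RVM (SD, n = 4). Slc6a11, a GABA transporter, had -2.24, -1.24, -0.26 and -1.23 (mean -1.24 ± 0.81, SD, n = 4). Adora3, an adenosine receptor, had -1.59, -1.27, -1.55, -0.67 and -3.80 (mean -1.78 ± 1.19, SD, n = 5). Klk1b3, a kallikrein-related peptidase gene, had 0.13, 1.58, 1.95 and 2.06 (mean 1.43 ± 0.89, SD, n = 4). In the saline RVM Slc6a11 had 1.12 on 1 array, Adora3 averaged -0.57 ± 1.49 (SD, n = 4) and Klk1b3 1.10 ± 0.16 (SD, n = 2).

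The delta opioid receptor gene Oprd1 lay just outside that group, and it is named here because of its values. Its PAG ratios were -3.18, -2.68, -2.29, -1.53 and -1.92 (mean -2.32 ± 0.64, SD, n = 5), and the only RVM array that measured it, array 5, gave 0.28. All 5 PAG values lay below that single value. After saline it was measured on 3 RVM arrays, at -0.60, -2.80 and -2.93, and on no PAG array, so it was below 0 on 8 of the 9 arrays that measured it. With 1 RVM array it did not enter the comparison of regions. In a fit of the 155 features measured on at least 3 PAG arrays, it was the only feature that passed against uninjected tissue (limma, Benjamini-Hochberg adjusted p = 0.0379). Since Oprd1 was named because of these same values, that p is no separate evidence. The dyes were never swapped, so a dye effect of the probe and an effect of injection cannot be told apart here.

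In the features measured on at least 3 arrays of each region, no difference between the PAG and the RVM passed the test. Of the 59 such features, 0 passed (0% called; by limma the smallest adjusted p was 0.403). At an unadjusted p under 0.05 there were 3 features (5.08% of those tested, where chance gives 2.95 features), 2 of them higher in the PAG. Exact permutation tests of each feature called 0 after adjustment and 3 at an unadjusted p under 0.05. The smallest permutation p lay between 0.00794 and 0.1 depending on the number of arrays, so that fewer than 10 features could not have passed together. Arrays of the 2 regions did not overlap in 5 features (8.47%), which were Gabbr1 feature 76, Tac1 feature 55, Slc6a4, Il17b and Il10. The 95% intervals of the differences had a median width of 1.76 log2 units, and 23 were wider than 2, so differences of about 1 unit were not detectable for many genes.

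After carrageenan the mean ratios of most of these 59 features lay further from 0 in the PAG. The absolute mean was larger in the PAG in 45 of the 59 features, with a median of 0.29 against 0.13 in the RVM. The SD was larger in the PAG in 40, with a median of 0.57 against 0.40. In the PAG 21 features, and in the RVM 15, had the same sign on every measured array. These 2 counts are not directly comparable, since a shared sign is likelier by chance over fewer arrays. For example, 18 features were measured on 5 PAG arrays and 3 RVM arrays. Both regional means were above 0 in 31 features and below 0 in 12, and they had opposite signs in 16, equally often in each direction. The PAG mean was the higher in 36 and the lower in 23, and the median difference of 0.12 fell to 0.01 without PAG array 4. Across the 59 features the means of the regions correlated with r = 0.65 and Spearman's rho = 0.38. Without the kainate receptor subunit Grik3, far below 0 in both regions, r was 0.22.

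**Figure D3:**
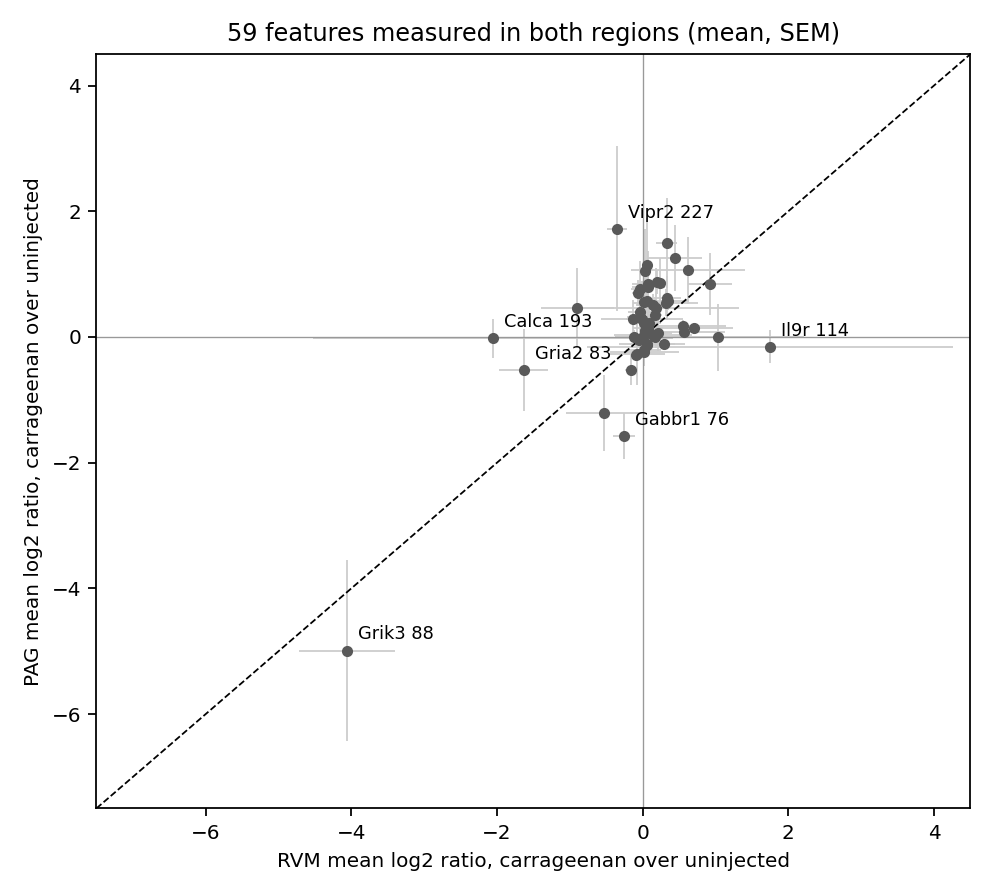
Mean log2 ratio of carrageenan-treated over uninjected tissue in the RVM (horizontal) and in the PAG (vertical) for the 59 features measured on at least 3 arrays of each region. Bars are standard errors of the mean and the dashed line marks equal means. Grik3 feature 88 lies at -4.06 and -4.99, and Gabbr1 feature 76 lies below the line.

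Against uninjected tissue, 4 of the 59 features passed in the PAG (6.78%), and 0 in the RVM (0%). In the PAG the means of Gabbr1 feature 76 and Grik3 feature 88 lay below 0, and those of Slc6a4 and Tac1 feature 55 above 0. The injected side always carried the same dye. For each of the 4, a dye effect of the probe and an effect of injection cannot be told apart. At an unadjusted p under 0.05 the counts were 16 in the PAG (27.1%) and 3 in the RVM (5.08%). The 3 in the RVM were Grik3, Gria2 and Htr2c, and the smallest adjusted p there was 0.822. These counts do not show a difference between regions, which the comparison above tested directly. The count of 4 in the PAG ranged from 0 to 5 as each array was left out, and it was 0 without PAG array 2 or array 3, 1 without PAG array 1, RVM array 1 or RVM array 3, and 2 without RVM array 5.

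GABA acts through ionotropic GABA-A receptors and through the GABA-B receptor, a G protein-coupled dimer whose first subunit Gabbr1 encodes. The ratios of Gabbr1 feature 76 were -0.70, -2.19, -2.58, -1.61 and -0.79 in the PAG and 0.07, -0.49, -0.09 and -0.54 on RVM arrays 1, 2, 3 and 5. Every PAG value lay below every RVM value. The means were -1.57 ± 0.83 (SD, n = 5) and -0.26 ± 0.30 (SD, n = 4). The difference was -1.31 (95% interval -2.27 to -0.36; limma, adjusted p = 0.403; exact permutation p = 0.0317 unadjusted) and did not pass. It was -0.45 under quantile normalization of the arrays. The PAG mean, below 0, passed against uninjected tissue (limma, adjusted p = 0.0247), as it did in 8 of 10 fits with 1 array left out. Without PAG array 2 its adjusted p was 0.0906 and without array 3 it was 0.0698. It was 0.0525 under quantile normalization and 0.136 in the fit of the 155 features of the PAG alone, so these settings ended the call too.

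The array carried 8 Gabbr1 features, and they did not share 1 direction in the PAG. Feature 37 had PAG ratios of 0.79, 1.51 and 0.25 on arrays 1, 2 and 5, and RVM ratios of -0.37, 0.24 and 0.34. Feature 35 had 1.20, 0.68, 0.68 and 1.21 on PAG arrays 1 to 4, feature 38 had 1.20, 0.75, 0.57 and 1.99, and neither was measured in the RVM. Feature 36 lay between, at -0.20, -0.78, -0.32, -0.59 and 0.11 in the PAG and 0.39 and 0.02 on RVM arrays 1 and 2. Feature 34 had 1.69 on PAG array 4 and -1.01 on RVM array 3. Feature 75 had -1.53 on PAG array 4 and no RVM value, and feature 220 had -0.09 and -1.52 on PAG arrays 1 and 4 and 0.23 and -3.40 on RVM arrays 3 and 5. The platform annotation ties features 34 to 38 and 76 to the same transcript record, so features of 1 target disagreed in sign. With the features of each gene averaged, 0 of 59 passed in the PAG against uninjected tissue.

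The 4 tested features of GABA-A receptor genes had region differences closer to 0 than Gabbr1 feature 76. Gabre feature 74, for the epsilon subunit, had ratios of 0.20, 0.95, 1.71, 1.70 and -0.29 in the PAG and 0.55, 0.18, 0.22 and 0.02 on RVM arrays 1 to 4. Its difference of 0.61 (95% interval -0.39 to 1.61) did not pass. Gabre feature 60, measured on too few RVM arrays to be tested, had -0.16, 1.17, -0.82, 0.46 and 0.37 in the PAG and 10.46 on RVM array 5. Gabra3, the alpha-3 subunit, was not tested either, and it is named here because of its values. It had -1.09, -1.78, -2.34, -2.28 and -5.21 in the PAG and 0.15 on RVM array 1. Gabrq, the theta subunit, was measured on all 10 arrays, and lay between 0.06 and 0.34 in the PAG and between -0.50 and 0.42 in the RVM. Of the 6 tested features of GABA and glycine receptors, 4 had the higher mean in the PAG and 2 in the RVM, with a median difference of 0.32 against 0.12 over all features. Gad2, which makes GABA, averaged 0.17 ± 0.22 (SD, n = 5) in the PAG and 0.56 ± 1.01 (SD, n = 3) in the RVM. The glutamate transporter gene Slc1a6 averaged -0.53 ± 0.52 (SD, n = 5) and -0.17 ± 0.14 (SD, n = 3).

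**Figure D4:**
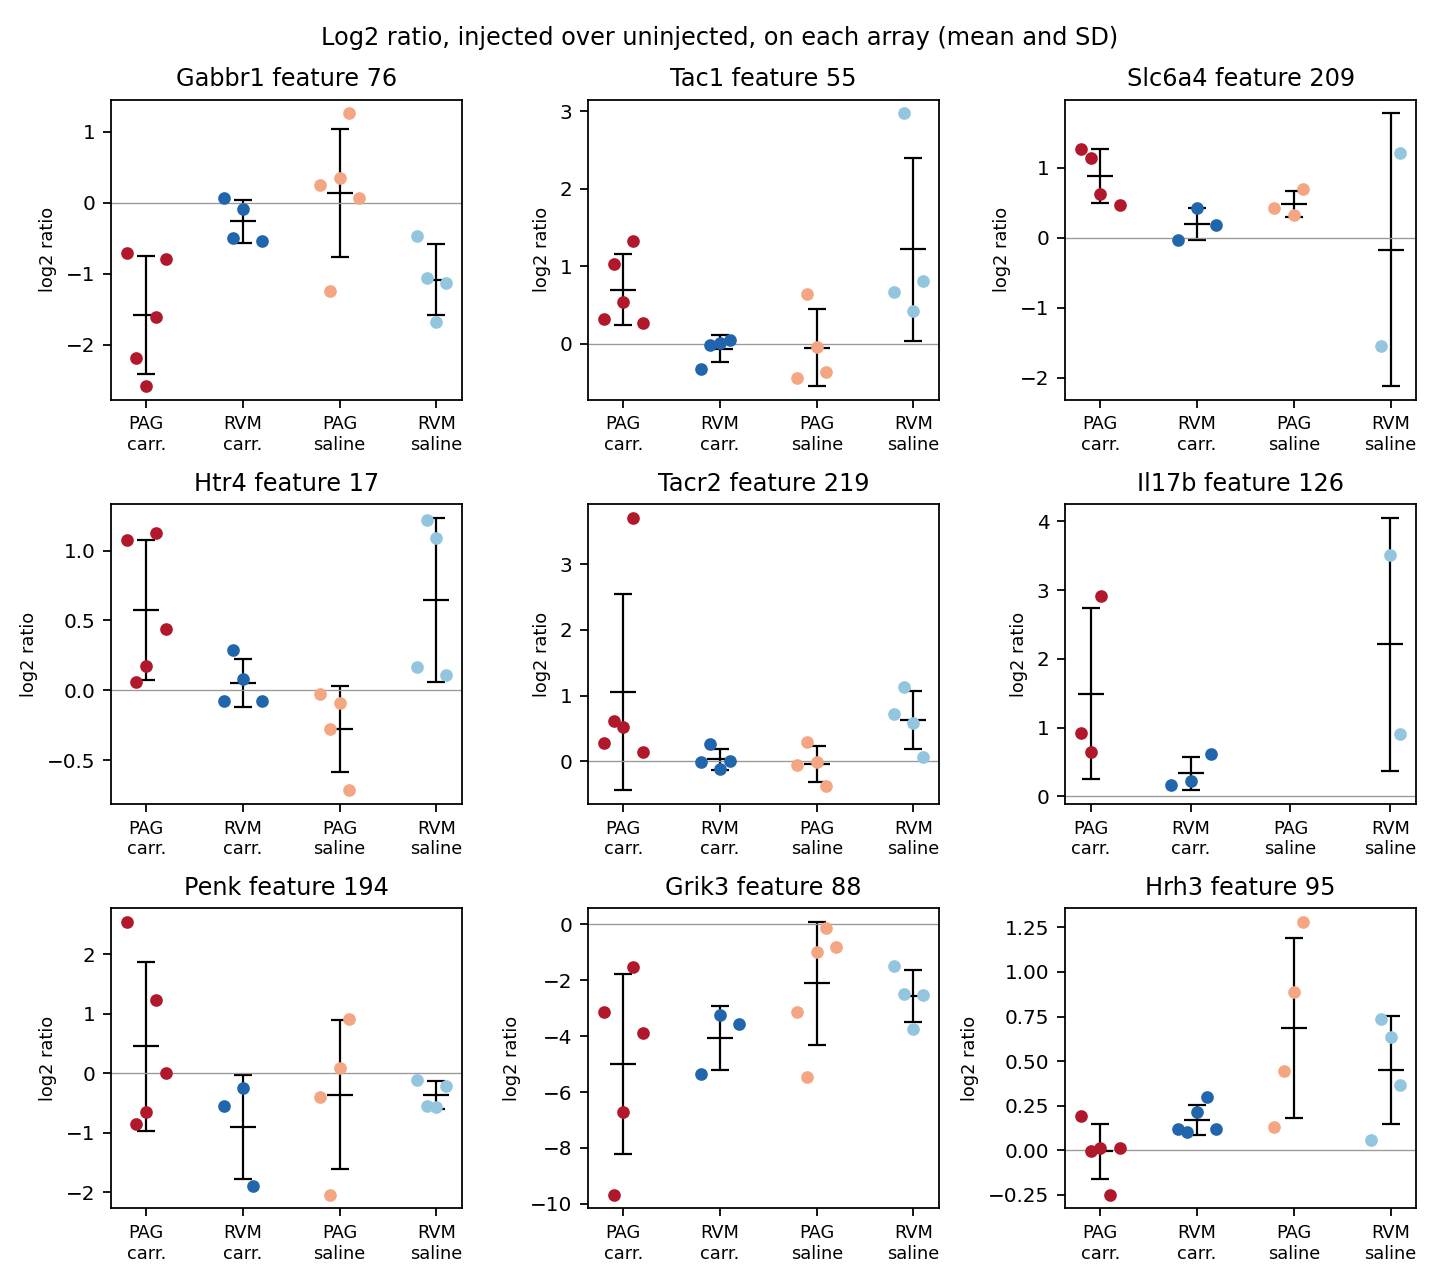
Log2 ratio of injected over uninjected tissue on each array for 9 features, in the PAG and RVM after carrageenan (carr.) and after saline. Points are arrays, long bars are means and whiskers are SDs; each panel has its own vertical scale. The PAG values of Gabbr1 feature 76 all lie below the RVM values after carrageenan, and those of Tac1 feature 55 all lie above them.

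Tachykinins are excitatory peptides of pain pathways, and Tac1 encodes the precursor of substance P. Tac1 feature 55 had ratios of 0.33, 1.03, 0.54, 1.32 and 0.27 in the PAG and -0.32, -0.01, 0.01 and 0.06 on RVM arrays 1 to 4. All 5 PAG values stood above all 4 RVM values. Means were 0.70 ± 0.46 (SD, n = 5) and -0.07 ± 0.17 (SD, n = 4). The difference was 0.76 (95% interval 0.20 to 1.33; limma, adjusted p = 0.403; exact permutation p = 0.0238 unadjusted) and did not pass. Under quantile normalization it was 0.47. The PAG mean, above 0, passed against uninjected tissue (limma, adjusted p = 0.037). It did so in 3 of 10 fits with 1 array left out, those without PAG array 5, RVM array 4 or RVM array 5. Its adjusted p reached 0.129 without PAG array 2. The call was also lost under median centring (adjusted p = 0.0553), under quantile normalization (0.128), with at least 2 measured arrays per group (0.063), with all 6 groups in 1 fit (0.239) and in the fit of the PAG alone (0.149).

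The other tachykinin features did not repeat that pattern. Tac1 feature 79 had 0.12, -0.57, -0.30, 1.51 and -0.06 in the PAG and 0.16, -0.14, -0.32 and 0.60 on RVM arrays 1, 3, 4 and 5, a difference of 0.06 (95% interval -0.90 to 1.03). Tac1 feature 28 had -0.03, -0.09, -0.62 and 0.02 on PAG arrays 1 to 4 and no RVM value. Tac1 feature 217 had no PAG value and -2.40 on 1 RVM array. The features share a transcript record in the annotation. Tacr2, the neurokinin A receptor, had 0.28, 0.61, 0.52, 3.71 and 0.14 in the PAG and -0.02, 0.26, -0.12 and -0.002 on RVM arrays 1 to 4. Its difference of 1.02 (95% interval -0.60 to 2.65) was 0.36 without PAG array 4.

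Opioid peptides relieve pain in both regions. Penk, the enkephalin precursor, had 2 tested features that differed in sign. Feature 194 had 2.54, -0.85, -0.65, 1.22 and 0.01 in the PAG and -0.55, -0.25 and -1.89 on RVM arrays 1, 3 and 4. Its difference was 1.35 (95% interval -0.63 to 3.34), with PAG values on both sides of 0. Feature 196 stayed close to 0 in the PAG, at 0.20, 0.35, 0.02 and -0.02, and had 1.78, 0.27 and 0.06 on RVM arrays 1, 3 and 5, a difference of -0.56 (95% interval -1.61 to 0.49). Feature 197 had -1.95, -0.72 and -1.005 on PAG arrays 1 to 3 and no RVM value. The 3 features share a transcript record.

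Serotonin is a transmitter of RVM neurons that project to the spinal cord, and Slc6a4 encodes the transporter that clears it. Slc6a4 had ratios of 1.27, 1.14, 0.63 and 0.47 on PAG arrays 1, 2, 3 and 5 and -0.03, 0.42 and 0.19 on RVM arrays 1, 3 and 5. The groups did not overlap. The difference was 0.68 (95% interval 0.06 to 1.31; limma, adjusted p = 0.629; exact permutation p = 0.0571 unadjusted, where 0.0286 was the smallest possible). The rise in the PAG, 0.88 ± 0.39 (SD, n = 4), passed against uninjected tissue (limma, adjusted p = 0.037) and in 4 of 7 fits with 1 array left out. It did not pass without PAG array 1, 2 or 3, where its adjusted p reached 0.129. Nor did it under quantile normalization (limma, adjusted p = 0.0507) or with at least 2 measured arrays per group (0.063). In the fit of the PAG alone its adjusted p was 0.149. Slc6a4 was also above 0 on all 3 saline PAG arrays that measured it (mean 0.48 ± 0.19, SD, n = 3), and had -1.55 and 1.21 in the saline RVM. Of the 12 arrays of the 4 groups that measured it, 10 were above 0. With dyes never swapped, a dye effect of the probe and an effect of injection cannot be told apart here.

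Among the tested features of serotonin receptors, Htr4, which couples to cyclic AMP, had the largest region difference. Its ratios were 1.08, 0.06, 0.18, 1.12 and 0.44 in the PAG and -0.08, 0.29, 0.08 and -0.08 on RVM arrays 1, 2, 3 and 5. The difference was 0.52 (95% interval -0.08 to 1.12), and the groups overlapped. Htr2c was above 0 on average in both regions, at 0.84 ± 0.99 (SD, n = 4) in the PAG and 0.93 ± 0.60 (SD, n = 4) in the RVM. Htr2a feature 11 lay between -0.01 and 0.04 in the PAG, and Htr5a lay between -0.17 and 0.01 there. A second Htr2a feature, 12, had 1.01 and -0.74 on PAG arrays 1 and 4 and no RVM value. The interval of the region difference was -0.21 to 0.22 for Htr2a feature 11 and -0.26 to 0.20 for Htr5a, and these were among the narrowest. Htr1d averaged 0.22 ± 0.65 (SD, n = 4) and 0.09 ± 0.33 (SD, n = 4). Over the 6 tested serotonin features, 4 had the higher mean in the PAG and the median difference was 0.07.

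Noradrenaline and histamine receptors gave no call. All 4 tested features of the noradrenaline and dopamine list had the higher mean in the PAG (median difference 0.24, 0 passed), although Adra2c turned to -0.11 under quantile normalization. Adrb3, a beta-adrenergic receptor, had 0.56, 0.53, -0.23, 0.40 and 2.50 in the PAG and -0.28, 0.10 and 0.08 on RVM arrays 1, 2 and 5. Adra2c, an alpha-2 adrenergic receptor, had a difference of 0.18 that was -0.07 without PAG array 4. Hrh3 feature 95, for a presynaptic histamine receptor, was measured on all 10 arrays, with 0.19, -0.002, 0.01, -0.25 and 0.02 in the PAG and 0.12, 0.10, 0.22, 0.30 and 0.12 in the RVM. It was above 0 on all 5 RVM arrays, while the regions overlapped through PAG array 1. After saline it averaged 0.69 ± 0.50 (SD, n = 4) in the PAG and 0.45 ± 0.30 (SD, n = 4) in the RVM. It was above 0 on 16 of the 18 arrays of the 4 groups that measured it, so a dye effect and an effect of injection cannot be told apart. The region difference of feature 95 after carrageenan was -0.18 (95% interval -0.43 to 0.07; exact permutation p = 0.0317 unadjusted; limma, adjusted p = 0.629). The other Hrh3 feature, 9, ran the other way on the 3 carrageenan arrays that measured it, with 0.74 on PAG array 2 and -0.87 and -0.61 on RVM arrays 1 and 3.

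Of the 59 features tested, the lowest mean in each region was that of Grik3, a kainate-type glutamate receptor subunit. Grik3 feature 88 had -3.12, -9.67, -6.73, -1.53 and -3.90 in the PAG and -5.37, -3.25 and -3.57 on RVM arrays 1, 3 and 5. The means were -4.99 ± 3.23 (SD, n = 5) and -4.06 ± 1.14 (SD, n = 3), and the difference of -0.93 had an interval from -5.17 to 3.30. Under quantile normalization the difference was 1.05. It was below 0 on all 17 arrays of the PAG and RVM that measured it, saline included, and so was Grik3 feature 89 on all 11. Because the dyes were never swapped, a dye effect of a probe and an effect of injection cannot be told apart in such a value. Against uninjected tissue Grik3 feature 88 passed in the PAG (limma, adjusted p = 0.037) and not in the RVM (limma, adjusted p = 0.822). It passed in 3 of 7 fits with 1 array left out, and did not without PAG array 1, 2, 3 or 5, where its adjusted p reached 0.125. It also did not with at least 2 measured arrays per group (adjusted p = 0.063) or in the fit of the PAG alone (0.136).

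Gria2 feature 83, for the AMPA receptor subunit that limits calcium entry, had -0.64, -0.68, -2.78, 0.57 and 0.91 in the PAG and -2.30, -1.20 and -1.40 on RVM arrays 1, 3 and 5. All RVM values were below -1, and the PAG values spread around them and above 0. The difference was 1.11 (95% interval -0.82 to 3.04). Gria4, measured on all 10 arrays, had a difference of 0.36 that was 0.05 without PAG array 4. The NMDA subunit Grin2b, also on all 10, was below 0 on all 5 PAG arrays, from -0.43 to -0.04. In the RVM it ran from -1.13 to 1.76 and was below 0 on 4 of 5 arrays. After saline Grin2b averaged -0.45 ± 0.20 (SD, n = 5) in the PAG and -0.46 ± 0.30 (SD, n = 4) in the RVM. It was below 0 on 18 of the 19 arrays of the 4 groups, so a dye effect and an effect of injection cannot be told apart. The metabotropic receptor Grm3 averaged -0.02 ± 0.37 (SD, n = 5) and -0.01 ± 0.28 (SD, n = 3). Grm3 was the only tested feature of the 8 in its list, because so few of them gave a ratio in the RVM.

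Other neuropeptide genes held the 2 highest region differences of the 59 tested features, and both rested on few arrays. Vipr2 feature 227, for a receptor of vasoactive intestinal peptide, had -0.16, -0.57, -0.48, 4.57 and 5.26 in the PAG and -0.05, -0.71, -0.34 and -0.30 on RVM arrays 2 to 5. PAG arrays 1 to 3 lay among the RVM values and arrays 4 and 5 far above, so the difference of 2.07 had an interval from -1.08 to 5.22. Calca feature 193, for the precursor of calcitonin gene-related peptide, had 0.22, 0.36, 0.26 and -0.94 on PAG arrays 1 to 4 and -0.17, 0.25, -9.41 and 1.13 on RVM arrays 1, 3, 4 and 5. Its difference of 2.03 (95% interval -3.28 to 7.34) was -0.43 without RVM array 4. Nts feature 184, for the neurotensin precursor, was above 0 on every PAG array, at 0.64, 0.33, 0.19, 0.79 and 0.88, and had -0.03, 0.13, 1.22 and 0.06 on RVM arrays 1, 3, 4 and 5. Ntsr1, a neurotensin receptor, had 0.32, 0.72, 0.31, 1.91 and 3.02 in the PAG and 0.39, -0.06, -0.05 and 1.499 on the same RVM arrays, a difference of 0.81 (95% interval -0.64 to 2.26). After saline Nts feature 184 averaged 0.29 ± 0.29 (SD, n = 5) in the PAG and 0.68 ± 0.46 (SD, n = 4) in the RVM. It was above 0 on 17 of the 18 arrays of the 4 groups that measured it, so a dye effect and an effect of injection cannot be told apart.

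The tested somatostatin receptors had region differences nearer 0. Sstr5 had 0.24, 0.49 and 0.45 on PAG arrays 1, 2 and 5 and -0.07, 0.29 and -0.31 on RVM arrays 1, 3 and 5, a difference of 0.43 (95% interval -0.13 to 0.98). Sstr2 feature 213 and Sstr3, each on all 10 arrays, differed by 0.06 and 0.07. All 5 tested features of the list of other neuropeptide receptors had the higher mean in the PAG as deposited (median difference 0.43, 0 passed), while under quantile normalization Sstr2 and Sstr3 turned to -0.14 and -0.04. Of the 3 tested neurotrophin features, 1 had the higher mean in the PAG. The low-affinity neurotrophin receptor Ngfr, on all 10 arrays, averaged 0.62 ± 0.77 (SD, n = 5) in the PAG and 0.34 ± 0.41 (SD, n = 5) in the RVM. It was above 0 on all 10. Feature 223 of the neurotrophin-3 receptor gene Ntrk3 had -1.498, -0.75, -0.12, 1.37 and 0.96 in the PAG and -0.47, 0.15, -0.10 and 4.56 on RVM arrays 1, 3, 4 and 5. Its difference of -1.04 was 0.13 without RVM array 5.

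Cytokine genes were thinly measured in both regions, and the PAG values of several were carried by array 4. Il10, an anti-inflammatory interleukin, had 0.15, 0.46, 0.55 and 3.40 on PAG arrays 1 to 4 and 0.04, 0.09 and 0.05 on RVM arrays 1, 3 and 4. The groups did not overlap, and the difference of 1.08 (95% interval -0.89 to 3.04) was 0.32 without PAG array 4. Il1b, a pro-inflammatory interleukin, had 0.18, 0.43, 0.42, 3.08 and -0.12 in the PAG and 0.30, -0.05, -0.01, -0.62 and 0.78 in the RVM. Its difference of 0.72 was 0.15 without PAG array 4. Of the 3 tested features of the cytokine list, 2 had the higher mean in the PAG and 1 the lower, with a difference of -0.19. Il17b, an interleukin-17 family member outside that list, had 0.91, 0.65 and 2.92 on PAG arrays 2 to 4 and 0.16, 0.22 and 0.61 on RVM arrays 1, 3 and 5. No value overlapped, but with 3 arrays a group the exact permutation p of 0.1 was the smallest possible.

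Among the cytokine receptors the RVM mean was the higher in 3 of 4 tested features. Il9r, the interleukin-9 receptor, had 0.09, -0.35, -0.32, 0.71 and -0.89 in the PAG and -1.06, -0.45 and 6.75 on RVM arrays 1, 3 and 5. The lowest region difference of the 59 features, -1.90 (95% interval -5.89 to 2.08), thus rested on 1 RVM array. Il5ra, on all 10 arrays, differed by -0.23. Il11ra1, the interleukin-11 receptor, had -0.07, -0.03, -0.03, 1.46 and 0.11 in the PAG and 0.17, -0.21, -0.16 and -0.31 on RVM arrays 1 to 4, and its difference of 0.42 was 0.12 without PAG array 4.

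PAG array 4 stood apart across genes. Of the 56 tested features measured on at least 4 PAG arrays, it held the value farthest from the PAG median in 28, the highest value in 20 and the lowest in 14. Of its measured ratios 46.2% lay more than 1 log2 unit from 0, against 25.8% to 35.4% on the other PAG arrays. Leaving it out kept the count of region differences at 0 (limma, smallest adjusted p = 0.61; 4 at an unadjusted p under 0.05). In the PAG against uninjected tissue 3 features passed without it, which were Gabbr1 feature 76, Grik3 feature 88 and Slc6a4.

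The saline arrays were used to ask whether a region difference after carrageenan also followed the injection of saline. In the 48 features measured on at least 3 arrays of each of the 4 groups, 0 passed the test of the difference between the 2 region differences (0% called; by limma the smallest adjusted p was 0.0633). At an unadjusted p under 0.05 there were 3 (6.25%, where chance gives 2.4). Whether carrageenan and saline arrays of a region shared uninjected controls is not stated in the labels. The median region difference was 0.06 after carrageenan and -0.03 after saline. The median of the difference between them was 0.27, and 0.08 under quantile normalization.

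The 3 features nearest the threshold had region differences of opposite sign in the saline arrays. Opposite signs were found in 25 of the 48 features, these 3 included. Ranking by the difference between the 2 region differences also favours opposite signs. Gabbr1 feature 76 had 0.25, -1.24, 0.35, 1.26 and 0.07 in the saline PAG and -0.46, -1.06, -1.68 and -1.13 in the saline RVM. Its region difference was thus 1.22 after saline and -1.31 after carrageenan, which differ by -2.53 (95% interval -3.91 to -1.16; limma, adjusted p = 0.0633). Over the alternatives its adjusted p ran from 0.00659 to 0.293, and it passed in 8 of 29. Htr4 had -0.03, -0.27, -0.09 and -0.72 in the saline PAG and 0.17, 1.22, 1.09 and 0.11 in the saline RVM. Its 2 region differences, 0.52 and -0.93, differ by 1.45 (95% interval 0.56 to 2.33; limma, adjusted p = 0.0806, from 0.0389 to 0.293 over the alternatives). Tac1 feature 55 had -0.44, 0.64, -0.04 and -0.37 in the saline PAG and 0.66, 2.97, 0.42 and 0.81 in the saline RVM. Its region differences of 0.76 and -1.27 differ by 2.03 (95% interval 0.68 to 3.38; limma, adjusted p = 0.0959, from 0.0493 to 0.293). Next came Tacr2, with 1.02 after carrageenan and -0.66 after saline, and Il11ra1, with 0.42 and -0.28 (limma, adjusted p = 0.515 for each). Penk feature 194 and Vipr2 had region differences near 0 after saline, and Calca had 1.51 there.

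**Figure D5:**
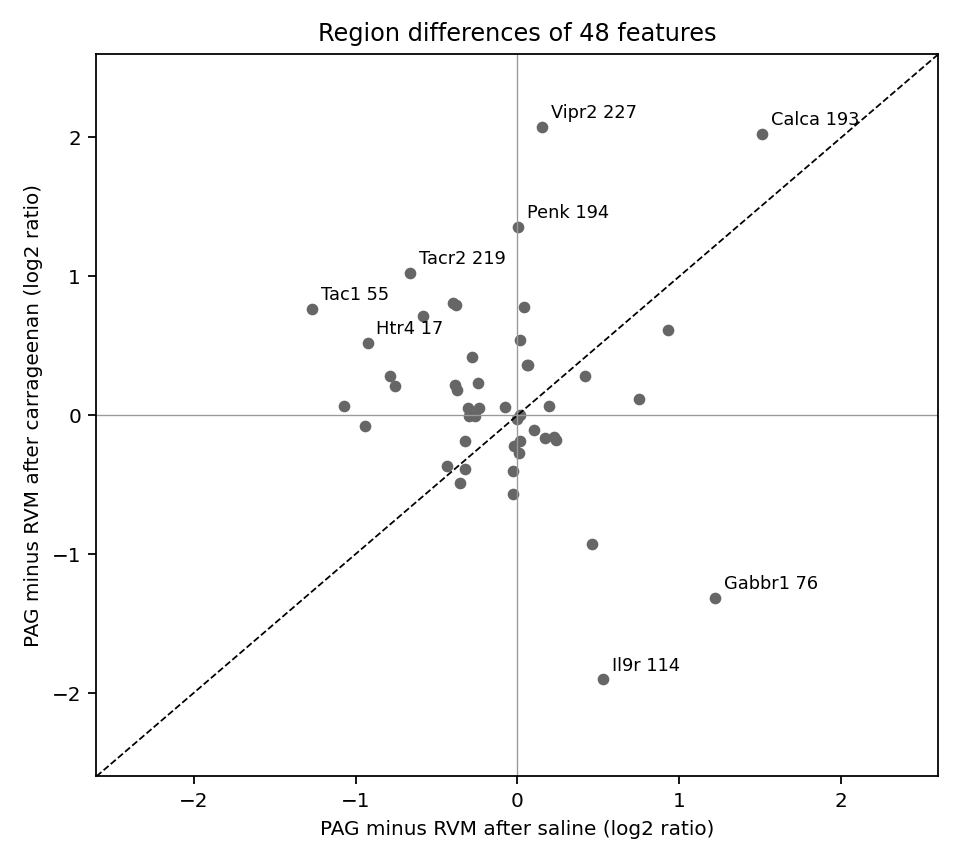
Region difference (PAG mean minus RVM mean, log2 ratio) after carrageenan against that after saline for the 48 features measured on at least 3 arrays of each group; the dashed line marks equal differences. Each point is a feature. Gabbr1 feature 76 lies at 1.22 after saline and -1.31 after carrageenan, and Htr4 and Tac1 feature 55 lie on the opposite side.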

How the data were processed

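The authors deposited a table of log2 ratios, 1 for each feature on each array; scanning, filtering and normalization are not given in the sources used here. Per the labels, 5 µg of total RNA per sample was reverse transcribed with a 3DNA kit and the dye was bound for 3 h at 65 °C. Base 2 and the direction, injected over uninjected, were inferred from the range of values and the dyes, and the centring is unknown. Array medians lay between -0.053 and 0.083, and no array was rescaled. Of the 228 features, 202 carried a gene symbol in the platform annotation; 191 were updated through a rat RefSeq table (GRCr8), 11 kept the annotation's name. No genome build is given for the array, so no coordinates or sequences are printed.

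An exact 0 was taken as not measured. Features measured on at least 3 arrays of each group were fitted with limma 3.58.1 (R 4.3.3; lmFit, eBayes, two-sided), with Benjamini-Hochberg adjustment over all features tested, a threshold of 0.05 and 95% intervals. A region against uninjected tissue was its mean against 0 in the same fit. Array measures were tested by exact permutation (SciPy 1.17.1). On simulated arrays for the comparison of regions (59 features, 50 draws), 72.4% of features shifted by 3 SD and 1.6% of those shifted by 1 SD were recovered. The simulated ratios were independent and normally distributed, with 1 SD per feature for both regions. In the data the SD was larger in the PAG in 40 of the 59 features and single arrays stood apart, so these rates need not hold there.

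Named features were those with the 20 smallest p, those on all 10 arrays and the 2 with the smallest p of each gene list. Also named were the tested opioid, tachykinin, serotonin and GABA-B features, those that passed against 0 and the 5 smallest p against saline. Of features measured in 1 region only, up to 10 with the largest absolute mean over its SD were named. Other tested features of the genes so named were added, and some that were measured on too few arrays to be tested. Not all of the latter are reported. Among those left out were Ntrk3 feature 185, Sstr2 feature 201, Vipr2 feature 226, Nts features 182 and 183, Calca feature 47 and Gria2 feature 81. Oprd1 and Gabra3 fell outside these rules and were named because of their values. Members and lists were chosen with earlier results of these data known. Alternatives covered centring, quantile normalization, zeros, the minimum of arrays, the groups in the fit, array weights, robust variances, averaging of features, sparse arrays, the replicate number and each array in turn. The number of arrays limits the precision.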

Additional observations from a re-analysis of the deposited data

Results flagged for a closer look

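In 75 sets of 4 or 5 arrays, each 1 named feature in 1 region, the value farthest out was compared with its nearest neighbour, and 16 stood apart. A nominal rate of 1 in 20 would give about 3.75. Whether that rate holds for these ratios was not tested, and the features were in part chosen by p-values of the same data. PAG array 4 accounted for 9 of the 16. These were Tacr2 (3.709), Il10 (3.398), Il1b (3.075), Ngfr (1.968), Gria4 (1.586), Il11ra1 (1.46), Adra2c (1.352), Gad2 (-0.218) and Calca (-0.941), all as log2 ratios. For 7 of the 9, array 4 was the highest of its group.

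RVM array 4 stood apart for Calca (-9.414) and Nts (1.224), and RVM array 5 for Ntrk3 (4.559) and Ngfr (1.046). RVM array 1 stood apart for Htr1d (0.582). In the PAG, array 5 stood apart for Adrb3 (2.503) and array 1 for Htr5a (-0.166), whose next value was -0.036.

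The number of measured features differed between the injections in its region difference. It was 79 features higher in the PAG after carrageenan and lower in the PAG after saline, and the 2 region differences differ by 143.7 features (exact permutation of the injections within each region, p = 0.000945). The part of array processing in that number was not tested.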

How the results depend on the processing

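The count of 0 region differences held in 22 of 23 alternatives (limma, smallest adjusted p up to 0.833); with zeros kept as ratios of 0 it was 1, Oprd1, for which 4 of the 5 RVM values are unmeasured zeros. In the PAG against uninjected tissue, the count of 4 became 1 under quantile normalization, 20 with zeros kept, 1 with at least 2 measured arrays per group, 2 with at least 4, 0 with the features of a gene averaged and 1 in a fit of the PAG alone. It was 0 over features measured on every array, an alternative chosen after seeing the data, and ran from 0 to 5 as each array was left out. In the RVM against uninjected tissue, quantile normalization gave 1, Grik3 feature 88. Against saline, the count of 0 became 6 with zeros kept, 3 with at least 4 arrays per group and 1 with array weights, and ran from 0 to 2 as each array was left out. Without the arrays of under 40 features the difference in measured features was 52.1 (exact permutation p = 0.107). The difference in array SD was 0.476 as median absolute deviation and 0.490 with zeros kept, and ran from -0.00832 to 0.328 as each array was left out. Where a value moved for other reasons than fewer features or arrays, the cause was not tested.

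Whether replicate numbers pair the regions is not stated in the labels. The deviations of same-numbered arrays correlated at 0.13, 0.01, -0.03, 0.28 and -0.02. Those of differently numbered arrays correlated at -0.26 to 0.24, and such values cannot show whether the regions were paired. With the replicate block the count of features that differed against saline was 1, Gabbr1 feature 76. In a test within replicate numbers the difference of 79 measured features had an exact p of 0.0625, the smallest 5 pairs allow. The block changed no other call.

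Of the 45 named features tested between regions, 26 kept the sign of their difference in every alternative and 0 passed in any. The other 19 turned sign in 42 of 827 values in all. Under quantile normalization the difference was 0.056 for unnamed feature 142, -0.12 for Ngfr, -0.84 for Nts, -0.11 for Adra2c, 0.22 for Il5ra, -0.039 for Sstr3, 1.05 for Grik3 feature 88, -0.31 for unnamed feature 62, -0.14 for Sstr2, -0.0089 for Htr2a and 0.16 for Grm3. With array weights it was -0.029 for Sstr2, 0.23 for Grin2d feature 171, -0.17 for Tac1 feature 79 and 0.11 for Grm3. Without the arrays of under 40 features it was -0.43 for Calca and -0.068 for Tac1 feature 79. Median centring gave -0.019 for Htr2a, and the replicate block 0.17 for Grm3.

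As each array was left out, the difference ran from -1.54 to 0.13 for Ntrk3, from -0.43 to 3.09 for Calca and from -0.056 to 0.46 for Ngfr. It ran from -0.067 to 0.27 for Adra2c, from -0.56 to 0.16 for Grin2b, from -0.0035 to 0.11 for Sstr3 and from -1.80 to 0.24 for Grik3 feature 88. It ran from -0.0073 to 0.66 for unnamed feature 62, from -0.06 to 0.42 for Htr1d, from -0.041 to 0.12 for Sstr2 and from -0.0395 to 0.0048 for Htr5a. It ran from -0.28 to 0.24 for Tac1 feature 79, from -0.46 to 0.26 for Htr2c, from -0.0036 to 0.0104 for Htr2a and from -0.13 to 0.12 for Grm3.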
